A study of Mus musculus with 2 samples.

Results

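The genes described here are 32 of the 27998 listed in both count matrices: the glucose and lactate transporters, the enzymes of glycolysis and a set of genes of the hypoxia response. They were found by symbol, from a list drawn up with earlier results of these data known. All 32 symbols were found. None of them was among the markers used to sort cells into types.

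Cells came from the centre of large full-thickness wounds, 1.8 cm across, on the backs of young adult male wild-type C57BL/6J mice, taken 2 days after the scab had come off. Both groups carried the same wound and the same genotype. The group WT_LW had been sprayed with PBS and the group TLR9agonist_LW with ODN2395, a CpG oligonucleotide that activates the endosomal receptor TLR9, on days 0, 3 and 6. Each group is 1 droplet library of dissociated epidermis and dermis pooled from several mice, so every difference between groups below is a difference between 2 libraries, with no replicate and no test. Intervals are 95% exact intervals and cover counting error only.

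Glycolysis splits glucose to pyruvate in the cytosol, and lactate dehydrogenase together with the monocarboxylate carriers lets a cell dispose of the pyruvate without using oxygen. Many of its genes are direct targets of the hypoxia-inducible factors, whose alpha subunits are marked for destruction by the oxygen-dependent EGLN prolyl hydroxylases. Healing skin is a textbook setting for both programmes, since a fresh wound bed is poorly perfused and since migrating keratinocytes, endothelial cells and activated leukocytes all rely on glycolysis.

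The factors bind a short core, ACGTG or GCGTG, in regulatory DNA near their targets. The stretches of 250 bases before the transcription start were taken from RefSeq (GRCm38.p6) for 30 of the 32 genes, with Ero1l listed there as Ero1a and with no entry for Slc2a3 and Ndrg1. Either core, searched on both strands with overlapping matches counted, occurred in such a stretch of 27 of the 30 genes (90%), against 41.5% of all 27025 genes in the table. Counted by stretch, 35 of 43 (81.4%) held a core, against 38.6% of all 32851. A match is a string of letters and not a bound site. The members were chosen as genes of glycolysis and the hypoxia response, many of them known targets, so their higher share is no independent result. The stretches were not matched to those of other genes for base content. The 6 stretches below, read 5′ to 3′ toward the start site, belong to the members on which the comparison of the libraries turns. Adm, Hk2 and Egln3 were higher in TLR9agonist_LW in most of the types where they were counted, and Slc16a3, Bnip3 and Ankrd37 went opposite ways in different types, though Ankrd37 did not in cells thinned to 1500 UMIs. Capitals mark the core matches.
Adm, chr7:110627407-110627656 (+ strand): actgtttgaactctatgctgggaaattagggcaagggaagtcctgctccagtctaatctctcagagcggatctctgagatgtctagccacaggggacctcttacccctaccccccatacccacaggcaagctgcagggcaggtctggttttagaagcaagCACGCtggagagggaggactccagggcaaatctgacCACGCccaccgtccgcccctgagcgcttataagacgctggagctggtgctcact
Hk2, chr6:82774455-82774704 (- strand): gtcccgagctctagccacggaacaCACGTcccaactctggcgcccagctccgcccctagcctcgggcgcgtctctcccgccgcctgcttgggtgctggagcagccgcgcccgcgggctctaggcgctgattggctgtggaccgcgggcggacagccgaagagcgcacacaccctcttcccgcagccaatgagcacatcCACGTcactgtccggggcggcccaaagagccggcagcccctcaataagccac
Egln3, chr12:54203875-54204124 (- strand): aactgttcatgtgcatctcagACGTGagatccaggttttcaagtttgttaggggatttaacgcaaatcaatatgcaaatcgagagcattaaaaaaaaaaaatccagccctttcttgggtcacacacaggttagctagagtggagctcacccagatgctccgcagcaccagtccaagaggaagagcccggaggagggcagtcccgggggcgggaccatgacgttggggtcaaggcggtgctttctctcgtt
Slc16a3, chr11:120948817-120949066 (+ strand): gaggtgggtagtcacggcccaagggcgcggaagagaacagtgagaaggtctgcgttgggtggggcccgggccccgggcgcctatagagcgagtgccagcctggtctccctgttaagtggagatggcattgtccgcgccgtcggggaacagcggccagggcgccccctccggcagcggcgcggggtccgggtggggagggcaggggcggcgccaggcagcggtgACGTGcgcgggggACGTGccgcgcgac
Bnip3, chr7:138909507-138909756 (- strand): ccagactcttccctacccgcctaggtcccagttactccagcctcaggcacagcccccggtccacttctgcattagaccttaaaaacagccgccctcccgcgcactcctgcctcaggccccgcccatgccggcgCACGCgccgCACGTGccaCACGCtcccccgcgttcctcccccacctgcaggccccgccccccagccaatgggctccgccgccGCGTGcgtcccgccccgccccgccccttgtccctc
Ankrd37, chr8:45999851-46000100 (- strand): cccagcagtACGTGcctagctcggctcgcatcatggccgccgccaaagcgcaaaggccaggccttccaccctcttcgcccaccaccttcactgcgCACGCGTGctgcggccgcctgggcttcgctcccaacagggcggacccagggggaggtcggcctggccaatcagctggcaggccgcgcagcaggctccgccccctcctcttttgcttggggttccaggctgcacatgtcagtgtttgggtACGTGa

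The stretch before Bnip3 held 5 matches and that before Ankrd37 4, while the Egln3 stretch held 1. Adm, Hk2 and Slc16a3 had 2 each. Among these 6, those that went both ways had 2 to 5 matches, and those that were higher almost everywhere had 1 or 2. Other members did not divide that way. Aldoc, which also went both ways, had 1 match in each of its stretches, and Ero1l, higher in 7 types, had 3. The 6 members were picked by their ratios, and whether the number of matches goes with the direction was not tested.

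The WT_LW library held 12800 barcodes and 99374045 unique molecular identifiers (UMIs), and TLR9agonist_LW 13751 barcodes and 132339022 UMIs. The libraries shared 47 barcode sequences. After the filters on cells, 11443 and 13206 cells were kept, and marker genes placed 9549 (83.4%) and 11228 (85.02%) of them in a type. The 9 types used were keratinocyte-like, fibroblast-like, mononuclear phagocyte-like, T cell-like, neutrophil-like, blood endothelial-like, pericyte-like, Schwann-like and mast cell-like, with 604, 1249, 2019, 3456, 50, 673, 580, 691 and 167 cells in WT_LW and 1349, 2901, 1380, 3672, 216, 417, 379, 441 and 412 in TLR9agonist_LW. In each library the leading genes of every type included at least 3 of its own markers among the top 10. The same markers had placed the cells, so this is no independent check of the types. Free RNA from keratinocytes was more plentiful in TLR9agonist_LW: the keratin gene Krt14 in the 8 other types stood at 0.96 to 1.93% of its keratinocyte-like level in WT_LW and at 2.69 to 8.78% in TLR9agonist_LW.

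Levels are UMIs divided by the type's total UMIs and scaled to the unit CPM (counts per 1000000), and wherever a pair of levels or shares is given, WT_LW comes first and TLR9agonist_LW second. The ratio is the log2 of TLR9agonist_LW over WT_LW. The log2 ratio of the median gene was itself between -0.45 (blood endothelial-like) and -0.10 (neutrophil-like) in 8 types and 0.01 in mast cell-like cells. Ratios below are therefore given relative to the median gene of the type and called relative log2 ratios, over the genes with at least 50 UMIs in that type. A gene past 1.5-fold is counted as higher or lower, and the range printed after a ratio is its 95% interval.

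The members were higher than the median gene in TLR9agonist_LW in 8 of the 9 types. The median relative log2 ratio over the members was 0.89 in keratinocyte-like, 0.82 in blood endothelial-like, 0.78 in T cell-like, 0.61 in pericyte-like, 0.50 in mast cell-like, 0.32 in Schwann-like and 0.27 in mononuclear phagocyte-like cells, and 1.02 over the 18 members counted in neutrophil-like cells. The median was lowest in fibroblast-like cells, at -0.021, close to the median gene, and its sign there changed with the processing. On plain CPM, without taking the median gene off, the median stayed above 0 in the same types except mononuclear phagocyte-like cells, where it was -0.0059, and it was -0.30 in fibroblast-like cells. The summed level of the 32 members was 4537 CPM in WT_LW and 7108 CPM in TLR9agonist_LW in T cell-like cells, 5207 and 6534 CPM in keratinocyte-like cells, and 3121 and 2935 CPM in fibroblast-like cells.

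Counted gene by gene, 20 of the 31 members with enough UMIs in T cell-like cells were past 1.5-fold higher and 1 lower, where 15.7% of all genes were higher and 15.3% lower. Keratinocyte-like cells had 19 of 31 higher and 0 lower, against a background of 14.9% and 13.5%. The largest share was in blood endothelial-like cells, 22 of 28 higher and 0 lower (background 16.7% and 13.9%). Pericyte-like cells had 15 of 27 higher and 0 lower (background 14.4% and 11.4%). In mononuclear phagocyte-like cells all 32 had enough UMIs, and 10 were higher and 1 lower, against 11.4% and 7.93% of all genes. Schwann-like cells had 7 of 25 higher and 0 lower (background 9.04% and 7.41%), and mast cell-like cells 8 of 16 higher and 1 lower (background 21.6% and 18.8%). Neutrophil-like cells had 13 of 18 higher and 0 lower against 24.5% and 23.6%, but with 50 cells in WT_LW most of the 18 reached 50 UMIs through TLR9agonist_LW, and such a gene tends to be a higher one. Fibroblast-like cells were split evenly, 5 of 30 higher and 5 lower, against 13.8% and 10.1% of all genes.

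These counts depended on the scale. On plain CPM the members past 1.5-fold higher and lower were 11 and 2 in keratinocyte-like cells, where 6.28% and 39.2% of all genes were. T cell-like cells had 13 and 2 (background 8.71% and 29.9%), blood endothelial-like cells 12 and 1 (6.85% and 39.4%) and fibroblast-like cells 4 and 10 (8.1% and 23.4%). In cells thinned to 1500 UMIs the number higher was 10 in blood endothelial-like cells (background 17.9%), and the number lower in fibroblast-like cells was 2 (background 9.99%).

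**Figure D1:**
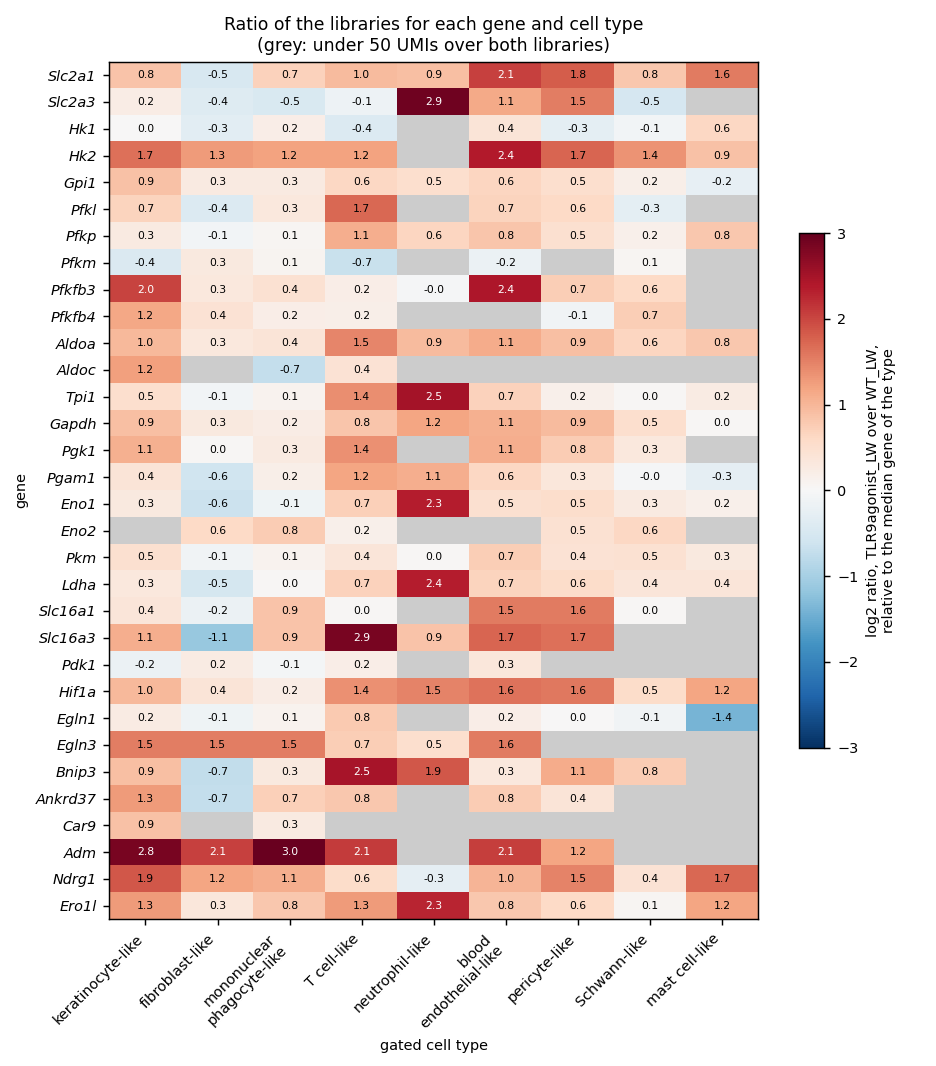
Relative log2 ratio (TLR9agonist_LW over WT_LW, minus the median gene of the type) of each of the 32 members (rows) in each of the 9 cell types (columns), in grey where fewer than 50 UMIs were counted. The column of fibroblast-like cells is mixed, with 5 of 30 members past 1.5-fold higher and 5 lower, where 13.8% and 10.1% of all genes were. The T cell-like column has 20 of 31 higher and 1 lower, where 15.7% and 15.3% of all genes were.

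Of the 288 combinations of a member and a type, 238 had enough UMIs. Over the 9 types together a call in at least 1 of them is common: of the 1136 genes that had enough UMIs in all 9 types, 66.7% were higher in at least 1, 35.3% lower in at least 1 and 16.6% both. The 13 members among them had 13, 2 and 2. Pdk1 was neither higher nor lower in any type. Hk2, in 8 types, and Adm, in 6, were past 1.5-fold higher wherever they had enough UMIs. Most UMIs of Adm in mononuclear phagocyte-like and T cell-like cells came from TLR9agonist_LW, where it was high. The same held for Hk2 in blood endothelial-like and mast cell-like cells. In these types the genes met the minimum of UMIs through that library, which favours a call as higher. The values just inside and outside the line were close to each other: in keratinocyte-like cells Pfkl at 0.67 and Tpi1 at 0.51, in T cell-like cells Gpi1 at 0.61 and Ndrg1 at 0.56, and in pericyte-like cells Pfkl at 0.59 and Ldha at 0.56.

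Glucose enters through the facilitative transporters Slc2a1 (GLUT1) and Slc2a3 (GLUT3). Slc2a1 was at 31.6 and 96.7 CPM in blood endothelial-like cells, a relative log2 ratio of 2.06 (1.80 to 2.32). Pericyte-like cells counted 28.9 and 77.1 CPM (ratio 1.81, 1.51 to 2.12), the highest ratio of any member in that type. Mast cell-like cells had 17.1 and 51.1 CPM (ratio 1.57, 0.60 to 2.66), from 11 and 46 UMIs. Most of the count with which Slc2a1 met the minimum there thus came from TLR9agonist_LW, where it was high. Schwann-like cells had 11.9 and 18.6 CPM (ratio 0.82, 0.29 to 1.35). The Schwann-like ratio was not kept when every cell was thinned to 1500 UMIs, where it was -0.030. Keratinocyte-like cells had 105 CPM of Slc2a1 in WT_LW, not apart from neutrophil-like cells at 96.4 CPM, and 139 CPM in TLR9agonist_LW (ratio 0.85, 0.76 to 0.94). Fibroblast-like cells were on the other side of 0, at 34.0 and 20.2 CPM (ratio -0.47, -0.63 to -0.32), inside 1.5-fold.

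Slc2a3 followed another pattern. It had the highest ratio of any member in neutrophil-like cells, 32.1 and 228 CPM (ratio 2.92, 1.53 to 4.82), from 4 UMIs in the 50 WT_LW cells. Pericyte-like cells had 30.4 and 66.9 CPM (ratio 1.54, 1.23 to 1.85). It was among the lowest members in T cell-like cells, at 51.2 and 37.8 CPM (ratio -0.14, -0.29 to -0.0016), in mononuclear phagocyte-like cells, at 5.83 and 3.49 CPM (ratio -0.47, -0.99 to 0.037), and in Schwann-like cells, at 16.1 and 10.1 CPM (ratio -0.50, -1.13 to 0.10). Shares of UMIs within a pair of genes are compared here between libraries and types only, since a UMI count does not give the molecules of different genes the same weight. Of the UMIs of both transporters, Slc2a1 made up 34.5% (32.0 to 37.1) in WT_LW and 53.2% (50.6 to 55.7) in TLR9agonist_LW in T cell-like cells, so the transporter with the larger count changed between the libraries.

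Hexokinase traps glucose in the cell; Hk1 is the housekeeping form and Hk2 the inducible one. Hk2 was higher in TLR9agonist_LW in every type in which it reached 50 UMIs, though in blood endothelial-like and mast cell-like cells it reached them through that library. The levels were 90.3 and 209.6 CPM in keratinocyte-like cells (ratio 1.66, 1.56 to 1.76), 76.8 and 152 CPM in fibroblast-like cells (ratio 1.27, 1.19 to 1.35) and 76.2 and 145 CPM in mononuclear phagocyte-like cells (ratio 1.20, 1.10 to 1.30). In blood endothelial-like cells, which had the least, it was 4.60 and 17.5 CPM (ratio 2.37, 1.71 to 3.09), of which free keratinocyte RNA would bring 0.868 and 5.63 CPM, and in pericyte-like cells 47.6 and 120.3 CPM (ratio 1.74, 1.501 to 1.98). Schwann-like cells gave 19.98 and 44.99 CPM (ratio 1.35, 0.98 to 1.72), the highest ratio of any member there. T cell-like cells had 47.7 and 89.99 CPM (ratio 1.21, 1.09 to 1.33).

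Hk1 was past 1.5-fold higher in mast cell-like cells alone among the 9 types, at 42.0 and 65.6 CPM (ratio 0.63, -0.05 to 1.34), with an interval that includes 0. It was at 33.1 and 24.4 CPM in keratinocyte-like cells (ratio 0.0029, -0.18 to 0.19), 44.8 and 27.6 CPM in T cell-like cells (ratio -0.41, -0.57 to -0.24) and 42.1 and 26.1 CPM in pericyte-like cells (ratio -0.29, -0.67 to 0.08), among the lowest 3 members in each. The Hk2 share of the UMIs of the pair therefore differed: 73.2% (70.7 to 75.5) and 89.6% (88.8 to 90.3) in keratinocyte-like cells, 51.5% (49.1 to 54.0) and 76.5% (74.7 to 78.3) in T cell-like cells, and 53.1% (48.3 to 57.8) and 82.2% (78.4 to 85.5) in pericyte-like cells, WT_LW first. Mast cell-like cells had 50.9% (37.1 to 64.6) and 55.3% (46.4 to 64.0), with overlapping intervals. Gpi1, the isomerase of the next step, ranged from -0.23 in mast cell-like cells, where 117 and 100.03 CPM made it one of the 3 lowest members (-0.69 to 0.23), to 0.89 in keratinocyte-like cells, and was past 1.5-fold there, in T cell-like and in blood endothelial-like cells.

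**Figure D2:**
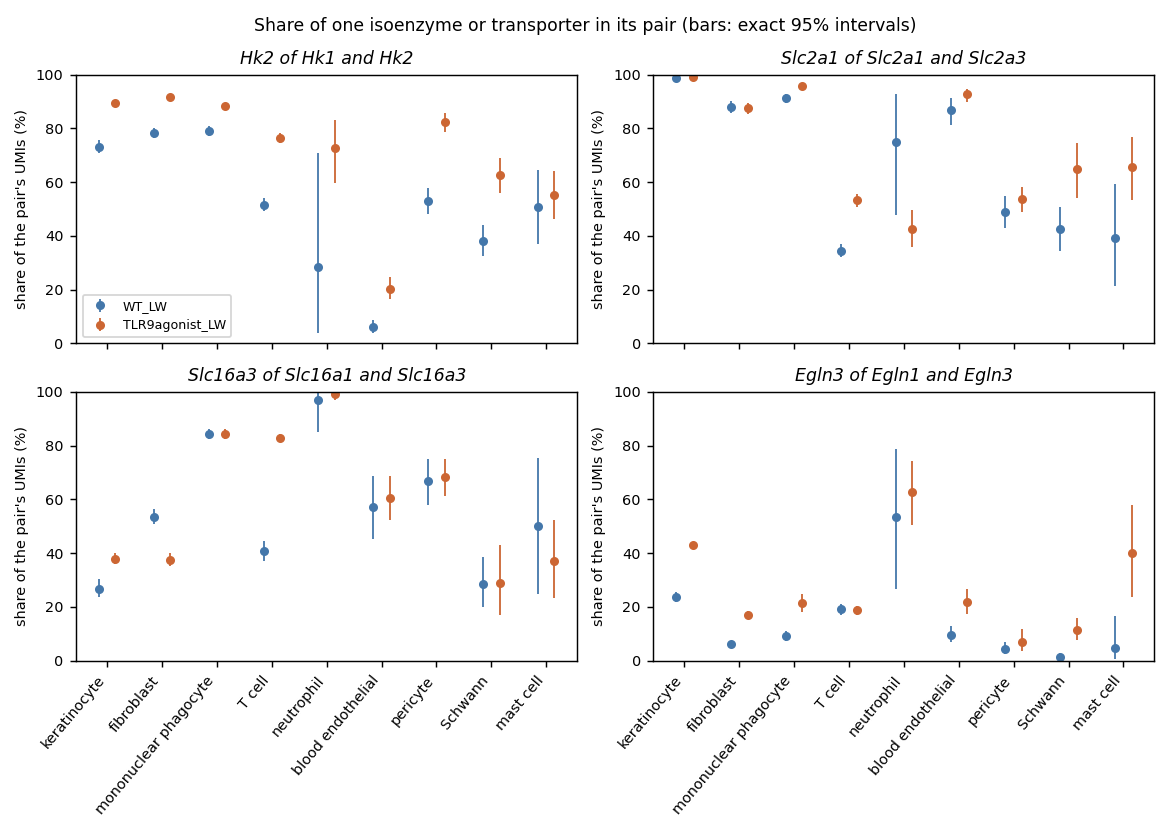
Share of the UMIs of 4 pairs of isoenzymes or related carriers that belong to the gene named first in each panel (vertical axis, percent), for the 9 cell types (horizontal axis) in WT_LW and TLR9agonist_LW, with exact 95% intervals for counting error. The Hk2 share in T cell-like cells goes from 51.5% to 76.5% and the Slc16a3 share from 40.8% to 82.9%, while in fibroblast-like cells the Slc16a3 share goes from 53.6% to 37.6%.

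Phosphofructokinase commits the sugar to glycolysis. Its liver-type subunit gene Pfkl was at 22.2 and 59.8 CPM in T cell-like cells (ratio 1.72, 1.56 to 1.89) and at 9.17 and 6.61 CPM in Schwann-like cells (ratio -0.29, -1.10 to 0.47), where it was one of the lowest members. The platelet-type gene Pfkp was past 1.5-fold higher in T cell-like (1.08), blood endothelial-like (0.84), mast cell-like (0.80) and neutrophil-like cells (0.64), and that last value was -0.17 in cells thinned to 1500 UMIs. The muscle-type gene Pfkm was the lowest member in 3 types: 2.88 and 1.48 CPM in T cell-like cells (ratio -0.66, -1.38 to 0.028), 4.66 and 2.52 CPM in keratinocyte-like cells (ratio -0.44, -0.97 to 0.10) and 9.93 and 6.42 CPM in blood endothelial-like cells (ratio -0.18, -0.89 to 0.49), with intervals that include 0 in all 3.

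Pfkfb3 and Pfkfb4 encode bifunctional enzymes that make and break the sugar bisphosphate activating phosphofructokinase. Pfkfb3 had the highest ratio of any member in blood endothelial-like cells, 60.5 and 240.0 CPM (ratio 2.43, 2.26 to 2.62), and the highest but Adm in keratinocyte-like cells, 8.03 and 24.0 CPM (ratio 2.02, 1.70 to 2.36). The order differed in T cell-like cells, with 19.0 and 17.8 CPM (ratio 0.20, -0.026 to 0.42), and in neutrophil-like cells, with 112 and 102 CPM (ratio -0.041, -0.91 to 0.92), whose interval includes 0. Pfkfb4 was past 1.5-fold in keratinocyte-like (1.17) and Schwann-like cells (0.75) and was one of the 3 lowest in pericyte-like cells, at 23.4 and 16.6 CPM (ratio -0.10, -0.59 to 0.38).

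Lower glycolysis carries the highest counts of the list. Aldoa, the main aldolase outside liver and brain, was past 1.5-fold higher in 7 of 9 types: 359.9 and 810.3 CPM in T cell-like cells (ratio 1.46, 1.42 to 1.51), with 1.10, 0.96, 0.94, 0.91, 0.82 and 0.65 in blood endothelial-like, keratinocyte-like, neutrophil-like, pericyte-like, mast cell-like and Schwann-like cells. Fibroblast-like and mononuclear phagocyte-like cells were inside 1.5-fold, at 0.31 and 0.39. Its brain-type relative Aldoc was the lowest member in mononuclear phagocyte-like cells, at 11.5 and 5.82 CPM (ratio -0.71, -1.11 to -0.33), and went the other way in keratinocyte-like cells, 5.29 and 9.19 CPM (ratio 1.24, 0.83 to 1.67).

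The triose phosphate isomerase gene Tpi1 was at 149.9 and 322 CPM in T cell-like cells (ratio 1.40, 1.33 to 1.46) and 48.2 and 253 CPM in neutrophil-like cells (ratio 2.49, 1.33 to 3.96). In neutrophil-like cells it met the minimum of UMIs through TLR9agonist_LW, where it was high. In the stromal types and in Schwann-like cells it was inside 1.5-fold, at -0.09, 0.16 and 0.037 in fibroblast-like, pericyte-like and Schwann-like cells. Gapdh, often used as a reference transcript, was not level between the libraries: 1358 and 1970.1 CPM in T cell-like cells (ratio 0.83, 0.81 to 0.85), 844 and 1298 CPM in blood endothelial-like cells (ratio 1.07, 1.012 to 1.12) and 1214 and 1673 CPM in keratinocyte-like cells (ratio 0.91, 0.88 to 0.93). It was inside 1.5-fold in mononuclear phagocyte-like (0.23), fibroblast-like (0.30), Schwann-like (0.50) and mast cell-like cells (0.033). Pgk1, which yields the first ATP of the pathway, was at 27.0 and 56.8 CPM in T cell-like cells (ratio 1.37, 1.21 to 1.53), with 1.09 in blood endothelial-like and 1.06 in keratinocyte-like cells. Pgk1 has a close copy, Pgk1-rs7, with 31 UMIs in WT_LW and 46 in TLR9agonist_LW, and reads that fit both could be split between them.

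Pgam1 and Eno1, the mutase and the enolase that follow, set T cell-like and fibroblast-like cells apart. Pgam1 was at 140.4 and 262 CPM in T cell-like cells (ratio 1.19, 1.12 to 1.26) and at 206 and 112 CPM in fibroblast-like cells (ratio -0.60, -0.67 to -0.54). It was among the lowest 3 in mast cell-like cells, 118 and 98.9 CPM (ratio -0.27, -0.73 to 0.19). For Eno1 the values were 237 and 316 CPM (ratio 0.71, 0.65 to 0.77) in T cell-like cells and 143 and 75.4 CPM (ratio -0.64, -0.72 to -0.57) in fibroblast-like cells. Mononuclear phagocyte-like cells had 250.05 and 189 CPM (ratio -0.13, -0.20 to -0.06), one of its 3 lowest members. Eno2, the neuronal enolase, was higher in fibroblast-like cells, 12.03 and 14.98 CPM (ratio 0.60, 0.37 to 0.82), so its share of the enolase UMIs there was 7.77% (6.83 to 8.78) in WT_LW and 16.6% (15.4 to 17.8) in TLR9agonist_LW. The Schwann-like value of Eno2, 0.61, became -0.030 in thinned cells. Pkm, pyruvate kinase, was past 1.5-fold only in blood endothelial-like cells among the 9 types (0.73). In neutrophil-like cells it was one of the 3 lowest members, 828 and 787 CPM (ratio 0.024, -0.29 to 0.35).

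Ldha, which turns pyruvate into lactate, was at 137 and 658 CPM in neutrophil-like cells (ratio 2.36, 1.66 to 3.16) and at 526 and 697 CPM in T cell-like cells (ratio 0.70, 0.66 to 0.74). The fibroblast-like level was lower in TLR9agonist_LW, 346 and 198 CPM (ratio -0.53, -0.58 to -0.48), just inside 1.5-fold, and the keratinocyte-like, mononuclear phagocyte-like and Schwann-like ratios were 0.31, 0.034 and 0.37. Mast cell-like cells held the most Ldha in both libraries, 688 and 895 CPM.

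Lactate leaves through the proton-coupled carriers Slc16a1 (MCT1) and Slc16a3 (MCT4). Slc16a3 gave the widest contrast between types of any member called past 1.5-fold in opposite directions. T cell-like cells had 16.4 and 97.0 CPM, a relative log2 ratio of 2.86 (2.68 to 3.04) and the highest of any member there. Fibroblast-like cells had 36.8 and 13.9 CPM (ratio -1.13, -1.29 to -0.96), the lowest of any member there. Pericyte-like cells, the mural cells of small vessels, were on the T cell side at 17.03 and 40.5 CPM (ratio 1.65, 1.24 to 2.07). Neutrophil-like cells held the most in both libraries, 273 and 461 CPM (ratio 0.85, 0.33 to 1.42), followed by mononuclear phagocyte-like cells with 66.3 and 99.3 CPM (ratio 0.85, 0.74 to 0.97). Schwann-like cells had 28 and 15 UMIs, too few for a ratio.

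Slc16a1 was past 1.5-fold in pericyte-like (1.56), blood endothelial-like (1.55) and mononuclear phagocyte-like cells (0.87), and was 0.045 in T cell-like cells. Slc16a3 as a share of the pair was 40.8% (37.1 to 44.5) in WT_LW and 82.9% (81.2 to 84.4) in TLR9agonist_LW in T cell-like cells. In fibroblast-like cells the shares were 53.6% (50.9 to 56.3) and 37.6% (35.1 to 40.1), in the opposite direction, and in mononuclear phagocyte-like cells 84.4% (82.6 to 86.1) and 84.3% (82.4 to 86.1), the same within counting error. Pdk1, the kinase that holds pyruvate back from the mitochondria, stayed inside 1.5-fold wherever it was counted, and was one of the 3 lowest in keratinocyte-like cells, 29.3 and 18.9 CPM (ratio -0.19, -0.38 to 0.015). Its range was -0.19 to 0.33 over 5 types.

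**Figure D3:**
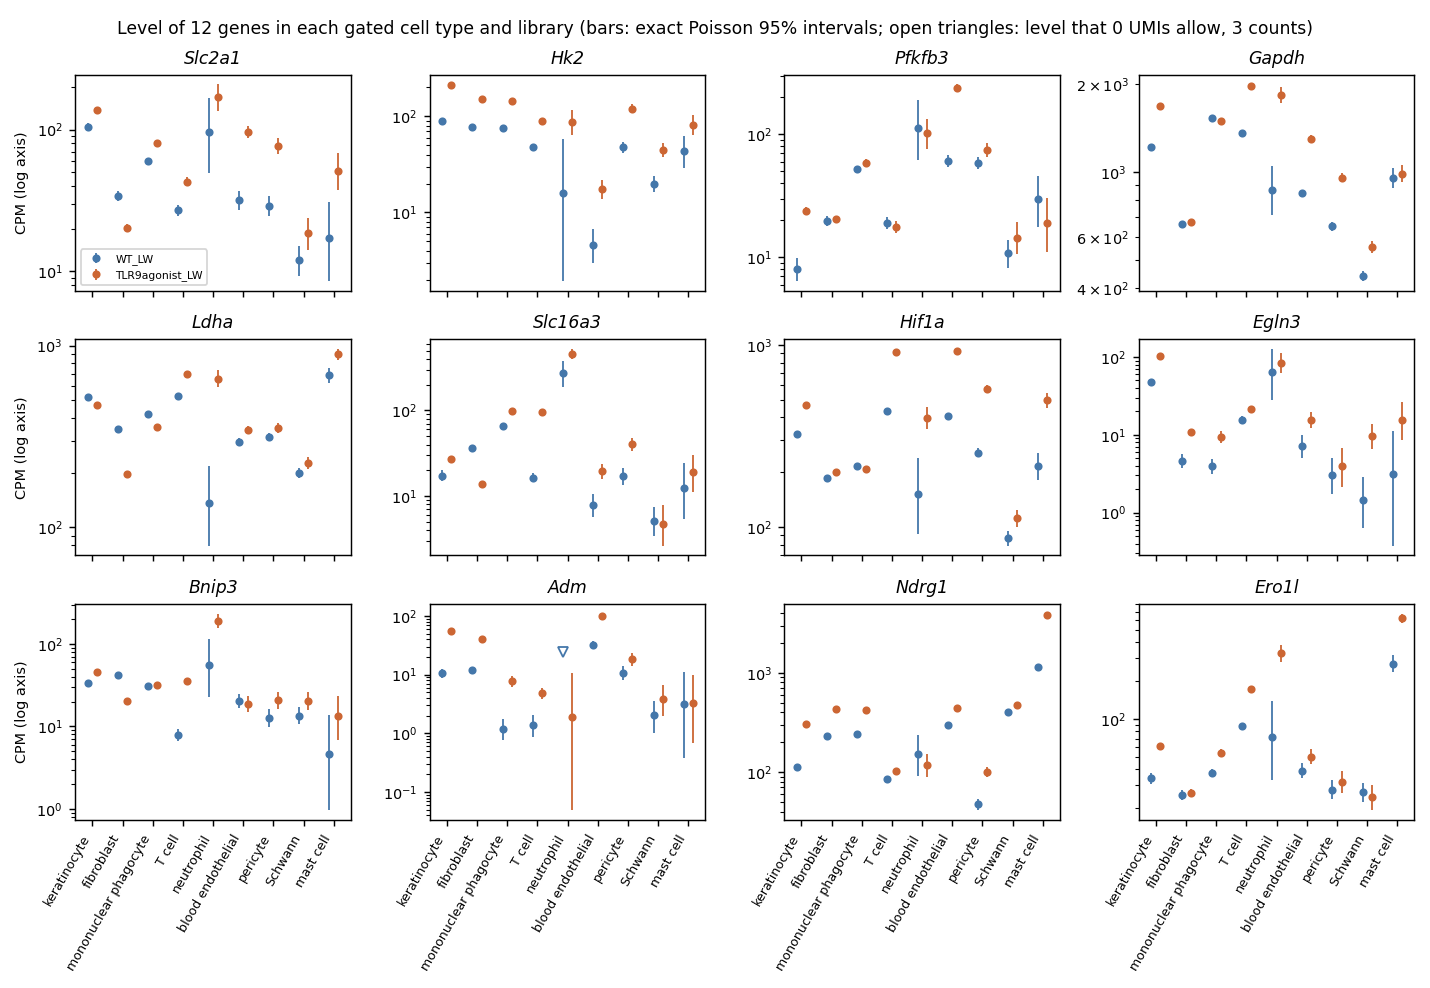
Level of 12 members (CPM, logarithmic axis) in WT_LW and TLR9agonist_LW in the 9 cell types, with exact 95% Poisson intervals; each point is 1 library, and the open triangle is the level that a count of 0 allows. Slc16a3 goes from 16.4 to 97.0 CPM in T cell-like cells and from 36.8 to 13.9 CPM in fibroblast-like cells, and Hif1a from 437 to 921 CPM in T cell-like cells.

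Hif1a, the oxygen-regulated alpha subunit itself, was higher at the transcript level in 6 of the 9 types. T cell-like cells had 437 and 921 CPM (ratio 1.37, 1.33 to 1.41), blood endothelial-like cells 406 and 923 CPM (ratio 1.63, 1.56 to 1.70) and pericyte-like cells 256 and 577 CPM (ratio 1.57, 1.47 to 1.68). Mast cell-like cells had 216 and 498 CPM (ratio 1.19, 0.91 to 1.48), among their 3 highest members. Keratinocyte-like and neutrophil-like ratios were 0.98 and 1.48, and those inside 1.5-fold were 0.55 (Schwann-like), 0.39 (fibroblast-like) and 0.22 (mononuclear phagocyte-like). The share of T cell-like cells with at least 1 Hif1a UMI, in cells thinned to 1500 UMIs, was 42.3% (40.6 to 44.0) in WT_LW and 67.3% (65.7 to 68.8) in TLR9agonist_LW. The unthinned shares were 71.5% and 89.4%.

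The hydroxylase genes Egln1 and Egln3, themselves HIF targets, differed from each other. Egln1 was near the median gene in most types and one of the 3 lowest members in blood endothelial-like cells, 66.4 and 55.6 CPM (ratio 0.19, -0.048 to 0.43), pericyte-like cells, 69.6 and 52.8 CPM (ratio 0.0031, -0.27 to 0.27), and Schwann-like cells, 92.9 and 75.8 CPM (ratio -0.11, -0.34 to 0.11). In mast cell-like cells it was the lowest member, 60.7 and 23.3 CPM (ratio -1.39, -2.23 to -0.59), and in T cell-like cells it was past 1.5-fold higher, 65.6 and 92.0 CPM (ratio 0.78, 0.67 to 0.89). Egln3 was among the 3 highest in fibroblast-like cells, 4.60 and 10.9 CPM (ratio 1.53, 1.20 to 1.88), and in mononuclear phagocyte-like cells, 3.92 and 9.47 CPM (ratio 1.55, 1.13 to 1.97). Judged by Krt14, free keratinocyte RNA would bring 0.710 and 2.97 CPM of this in fibroblast-like cells. In mononuclear phagocyte-like cells it would bring 0.544 and 3.25 CPM. Keratinocyte-like cells had 47.7 and 102 CPM (ratio 1.53, 1.40 to 1.67), and the Egln3 share of the pair was 23.7% (21.9 to 25.5) and 43.2% (42.0 to 44.3) there, WT_LW first, against 19.1% (17.1 to 21.2) and 18.7% (17.1 to 20.5) in T cell-like cells.

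Among the remaining targets, Adm, which encodes the vasodilator peptide adrenomedullin, had the highest ratio in 3 types. It was at 10.6 and 55.7 CPM in keratinocyte-like cells (ratio 2.84, 2.57 to 3.12), 1.20 and 7.69 CPM in mononuclear phagocyte-like cells (ratio 2.96, 2.31 to 3.65) and 11.9 and 41.0 CPM in fibroblast-like cells (ratio 2.06, 1.86 to 2.27). In mononuclear phagocyte-like cells Adm met the minimum of UMIs through TLR9agonist_LW, where it was high. Blood endothelial-like cells held the most in both libraries, 32.5 and 99.8 CPM (ratio 2.06, 1.81 to 2.32). T cell-like cells had 1.36 and 4.77 CPM (ratio 2.11, 1.44 to 2.82), and there 2.82 CPM of the TLR9agonist_LW level is what free keratinocyte RNA would bring, judged by Krt14, against 0.147 CPM in WT_LW. In neutrophil-like cells 0 UMIs of Adm were counted in WT_LW, which allows a level of up to 24.1 CPM.

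Ndrg1, a stress-responsive gene of the hypoxia response, was among the 3 highest in keratinocyte-like cells, 113 and 303 CPM (ratio 1.87, 1.78 to 1.95), and the highest in mast cell-like cells, 1141 and 3820.0 CPM (ratio 1.73, 1.62 to 1.85). The mast cell-like level was the highest of any type in both libraries. Neutrophil-like cells were at 153 and 118 CPM (ratio -0.28, -1.04 to 0.55), their lowest member. Ero1l, the oxidase that drives disulphide bond formation in the endoplasmic reticulum, had its highest level in mast cell-like cells too, 272 and 620.2 CPM (ratio 1.17, 0.93 to 1.43). It was past 1.5-fold higher in 7 types, from 0.61 in pericyte-like cells to 2.29 in neutrophil-like cells, and was 0.35 in fibroblast-like and 0.06 in Schwann-like cells.

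Bnip3, a mitochondrial protein that marks the organelle for removal, repeated the contrast of Slc16a3. It was at 7.91 and 35.9 CPM in T cell-like cells (ratio 2.47, 2.21 to 2.75) and at 41.7 and 20.5 CPM in fibroblast-like cells (ratio -0.75, -0.89 to -0.60). Blood endothelial-like cells had 20.6 and 18.8 CPM (ratio 0.32, -0.11 to 0.74), with an interval that includes 0, and Schwann-like cells 13.6 and 20.5 CPM (ratio 0.77, 0.27 to 1.27), among their 3 highest. Ankrd37, a small ankyrin repeat gene, was at 11.2 and 19.97 CPM in keratinocyte-like cells (ratio 1.27, 0.99 to 1.57) and 8.42 and 4.21 CPM in fibroblast-like cells (ratio -0.72, -1.04 to -0.40), but the latter became 0.77 in cells thinned to 1500 UMIs, so its direction in fibroblast-like cells changed with thinning. Car9, the cell-surface carbonic anhydrase, was scarce: 1.004 and 1.36 CPM in keratinocyte-like cells (ratio 0.88, -0.10 to 1.99) and 3.73 and 3.73 CPM in mononuclear phagocyte-like cells (ratio 0.27, -0.28 to 0.81), with 0 UMIs in both libraries in pericyte-like and neutrophil-like cells. In pericyte-like cells that allows up to 0.616 CPM in WT_LW and 0.921 CPM in TLR9agonist_LW.

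**Figure D4:**
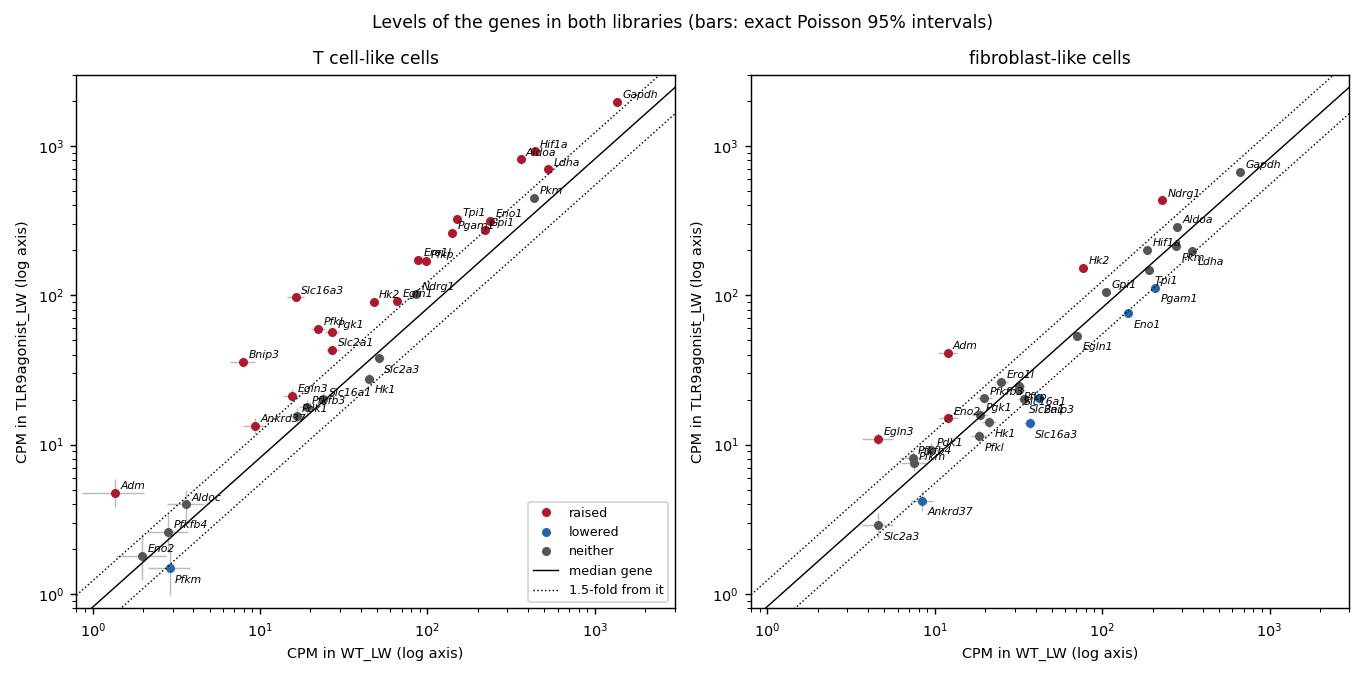
Level of each member (CPM, logarithmic axes, exact 95% Poisson bars) in TLR9agonist_LW (vertical) against WT_LW (horizontal) in T cell-like and fibroblast-like cells, with the line of the type's median gene and dotted lines 1.5-fold from it. In T cell-like cells 20 of 31 members lie past 1.5-fold above the line and 1 below it, where 15.7% and 15.3% of all genes do. In fibroblast-like cells 5 of 30 lie above and 5 below, where 13.8% and 10.1% of all genes do.

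Shares of cells with a UMI went the same way as the levels for the members followed here. In cells thinned to 1500 UMIs, Slc16a3 was seen in 2.46% (1.96 to 3.04) of T cell-like cells in WT_LW and 10.6% (9.62 to 11.6) in TLR9agonist_LW, with unthinned shares of 6.97% and 24.2%. In fibroblast-like cells the thinned shares were 4.16% (3.06 to 5.51) and 2.05% (1.55 to 2.65), and the unthinned ones 20.02% and 13.1%. Schwann-like cells, the type with the least Slc16a3, had thinned shares of 0.444% and 0.228%, and their unthinned shares were 4.05% and 2.04%. Bnip3 was seen in 1.26% and 4.97% of thinned T cell-like cells (3.65% and 11.7% unthinned). For Hk2 in keratinocyte-like cells the thinned shares were 11.2% and 28.9% (50.3% and 85.5% unthinned), and for Adm 0.893% and 7.45% (8.11% and 33.4% unthinned). In the types with low levels of these genes the thinned shares were 1.10% and 3.15% for Hk2 in blood endothelial-like cells, 0.300% and 0.714% for Adm in T cell-like cells and 11.7% and 12.8% for Hif1a in Schwann-like cells. By Krt14, free keratinocyte RNA could bring 18.9% and 32.2% of the Hk2 level in blood endothelial-like cells and 10.9% and 59.0% of the Adm level in T cell-like cells, so no difference in those shares is read as expression. Median UMIs per cell were 4261 and 4582 in T cell-like cells, 13264 and 22667 in keratinocyte-like cells, 14514 and 12881 in fibroblast-like cells and 7277 and 6648 in Schwann-like cells.

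Within the larger types the members did not behave alike everywhere. T cell-like cells with at least 3 of 7 markers of interleukin-17-producing gamma delta T cells (632 cells in WT_LW and 1802 in TLR9agonist_LW) had a median over the members of 0.92, and those with at most 1 such marker (2346 and 1252 cells) also 0.92. In T cell-like cells as a whole it was 0.78. Slc16a3 was at 17.8 and 137 CPM in the gamma delta T17-like cells (ratio 3.27, 2.90 to 3.66) and at 15.5 and 56.3 CPM in the other T cell-like cells (ratio 2.12, 1.85 to 2.39). Bnip3 differed in the same order, 2.55 (2.08 to 3.06) against 1.57 (1.15 to 1.99), and Slc16a1 went opposite ways, 0.83 (0.41 to 1.26) against -0.65 (-1.009 to -0.30). Hif1a was 416 and 936 CPM in the gamma delta T17-like cells (ratio 1.496, 1.42 to 1.58) and 429 and 879.5 CPM in the others (ratio 1.30, 1.24 to 1.36).

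Among mononuclear phagocyte-like cells the macrophage-like ones (1173 and 809 cells) had a median of 0.08, the dendritic-like ones (266 and 143) 0.37, and the remaining ones (580 and 428) 0.55. Adm in dendritic-like cells was at 1.44 and 25.1 CPM (ratio 4.46, 3.13 to 6.15), from 5 and 45 UMIs, so it met the minimum of 50 UMIs only through the library where it was high. Slc16a3 was 0.039 (-0.13 to 0.21) in macrophage-like, 1.32 (0.92 to 1.72) in dendritic-like and 1.49 (1.33 to 1.66) in the remaining cells. Egln3 was 0.98 (0.39 to 1.58) in macrophage-like cells and 2.35 (1.63 to 3.13) in the remaining ones. Slc16a1 had 1.06 (0.72 to 1.41) in macrophage-like cells.

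Basal and differentiated keratinocyte-like cells had medians of 0.79 and 0.86, from 212 and 297 cells in WT_LW and 346 and 763 in TLR9agonist_LW. Pfkfb3 had the larger ratio in the basal cells, 6.37 and 33.3 CPM (ratio 2.69, 2.11 to 3.32), against 9.91 and 20.5 CPM (ratio 1.43, 1.006 to 1.88) in the differentiated ones. Slc2a1 and Ndrg1 had it the other way round: 0.51 (0.38 to 0.64) basal and 1.56 (1.36 to 1.76) differentiated for Slc2a1, and 1.24 (1.11 to 1.37) and 2.35 (2.21 to 2.49) for Ndrg1. The Hk2 ratios had overlapping intervals, 1.62 (1.42 to 1.83) and 1.59 (1.46 to 1.72).

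The type with the highest level of a member was the same in both libraries for 14 of the 32. Keratinocyte-like cells were highest for 11 members in WT_LW and 5 in TLR9agonist_LW, and neutrophil-like cells for 6 and 12. Mononuclear phagocyte-like cells were highest for 5 members in WT_LW and 0 in TLR9agonist_LW, and T cell-like cells for 2 and 5. Schwann-like cells were lowest for 10 and 14. Many of these leads are within counting error: the interval of the highest type lay apart from that of the second for 20 of 32 members in WT_LW and 15 of 32 in TLR9agonist_LW, and for 2 of 6 and 5 of 12 of those led by neutrophil-like cells. Gapdh was highest in mononuclear phagocyte-like cells in WT_LW (1527 CPM, against 1358 in T cell-like cells) and in T cell-like cells in TLR9agonist_LW (1970.1 CPM, against 1834 in neutrophil-like cells), and the intervals of that last pair overlap. Hk2 kept its order at the top: keratinocyte-like then fibroblast-like cells in both libraries. Hif1a had 923 CPM in blood endothelial-like and 921 CPM in T cell-like cells in TLR9agonist_LW, which do not differ beyond counting error.

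Further genes of the pathway, outside the 32, were followed as lists. Other hypoxia targets, 20 genes, had medians of 0.68 in keratinocyte-like cells (13 of 20 past 1.5-fold higher and 1 lower), 0.91 in T cell-like cells (11 of 19 and 0), 0.94 in blood endothelial-like cells (10 of 17 and 1) and 0.89 in mast cell-like cells (8 of 11 and 0). They were 0.15 in fibroblast-like cells (8 of 20 and 2), 0.34 in mononuclear phagocyte-like cells (7 of 18 and 1), 0.51 in pericyte-like cells (8 of 18 and 0), 0.90 in neutrophil-like cells (5 of 7 and 0) and -0.045 in Schwann-like cells (4 of 16 and 1). Of all genes, 14.9% were higher and 13.5% lower in keratinocyte-like cells, and 15.7% and 15.3% in T cell-like cells. Those shares were 16.7% and 13.9% in blood endothelial-like, 21.6% and 18.8% in mast cell-like and 13.8% and 10.1% in fibroblast-like cells. They were 11.4% and 7.93% in mononuclear phagocyte-like, 14.4% and 11.4% in pericyte-like, 24.5% and 23.6% in neutrophil-like and 9.04% and 7.41% in Schwann-like cells. In keratinocyte-like cells the highest of these targets were Stc1 (2.12) and Stc2 (1.78), encoding stanniocalcins, and the lowest Ankzf1 (-0.62) and P4ha2 (0.11). Fibroblast-like cells again had Stc2 (2.32) and Stc1 (1.82) at the top, with the adenylate kinase gene Ak4 (-1.16) and the collagen cross-linking enzyme gene Loxl2 (-1.03) at the bottom. Mononuclear phagocyte-like cells had Pgf (1.88), encoding placental growth factor, and Ddit4 (1.32) at the top, and Loxl2 (-0.60) and Tfrc (-0.15) at the bottom.

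Of the 7 other regulators of the factors, 6 had enough UMIs in each of the types named next, with medians of -0.26 in keratinocyte-like (1 past 1.5-fold higher and 1 lower), 0.09 in fibroblast-like (1 and 0), 0.06 in mononuclear phagocyte-like (1 and 0) and 0.37 in T cell-like cells (0 and 0). Of all genes, 14.9% and 13.5%, 13.8% and 10.1%, 11.4% and 7.93%, and 15.7% and 15.3% were higher and lower in these types, in the same order. In neutrophil-like and mast cell-like cells only 1 of the 7 regulators had enough UMIs. In the first 3 types the highest was Cited2, which competes with the factors for their coactivator, at 1.36, 0.83 and 1.19. The next highest were Arnt (-0.15) in keratinocyte-like, Egln2 (0.23) in fibroblast-like and Hif1an (0.17) in mononuclear phagocyte-like cells. The lowest were Vhl (-0.78) and Epas1 (-0.36) in keratinocyte-like cells, Epas1 (-0.19) and Hif1an (-0.07) in fibroblast-like cells, and Vhl (-0.23) and Epas1 (-0.18) in mononuclear phagocyte-like cells.

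Pyruvate and lactate handling, 11 genes, had medians of 0.15, -0.08 and 0.010 in keratinocyte-like, fibroblast-like and mononuclear phagocyte-like cells. Its highest and lowest genes were Pdp1 (1.03), Pdhb (0.36), Pdk4 (-0.52) and Pdk3 (-0.40) in keratinocyte-like cells, Pdk4 (1.497), Pdk2 (0.71), Pdha1 (-0.28) and Pdk3 (-0.22) in fibroblast-like cells, and Pdp1 (0.45), Dld (0.14), Pdk3 (-0.40) and Dlat (-0.28) in mononuclear phagocyte-like cells. The 7 genes of the pentose phosphate pathway were at 0.041, 0.0075 and 0.011 in the same types, at -0.30 in T cell-like cells, where 0 of 7 were past 1.5-fold, and at -0.58 in mast cell-like cells, where 2 of 4 were lower. Both of the 2 with enough UMIs in neutrophil-like cells were lower. Of all genes, 18.8% were lower in mast cell-like and 23.6% in neutrophil-like cells, and in T cell-like cells 15.7% were higher and 15.3% lower. In the first 3 types the ends were Taldo1 (0.37), Pgls (0.24), Rpia (-0.67) and G6pdx (-0.57) in keratinocyte-like cells, Rpe (0.19), Pgls (0.11), Pgd (-0.46) and G6pdx (-0.31) in fibroblast-like cells, and Rpe (0.15), Taldo1 (0.06), Rpia (-0.40) and G6pdx (-0.40) in mononuclear phagocyte-like cells. G6pdx, the entry enzyme of that side branch, was thus among the lowest in all 3. Glycogen and gluconeogenesis genes, 12 in all, had medians of -0.10, -0.45 and -0.13. Toward the ends of that list were Pgm1 (0.52), Gbe1 (0.19) and Pck2 (-0.38) in keratinocyte-like cells, Gbe1 (0.33), Pygb (0.21), Pygm (-0.79) and Pgm1 (-0.61) in fibroblast-like cells, and Gbe1 (0.97), Pck2 (0.54) and Pygl (-0.72) in mononuclear phagocyte-like cells.

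Genes of mitochondrial respiration encoded in the nucleus, 22 genes, had medians of 0.39 in keratinocyte-like cells (5 past 1.5-fold higher), 0.15 in fibroblast-like (1), 0.15 in mononuclear phagocyte-like (1) and 0.14 in T cell-like cells (1). Of all genes, 14.9%, 13.8%, 11.4% and 15.7% were higher in these types. In mast cell-like cells the respiration genes were at -0.15, with 0 higher and 5 lower, against 21.6% and 18.8% of all genes. In neutrophil-like cells they were at 0.05, with 2 of 15 higher and 3 lower, against 24.5% and 23.6%. The highest were Cox7c (0.87) and Ndufa1 (0.74) in keratinocyte-like cells, Cox6c (0.62) and Cox8a (0.51) in fibroblast-like cells, and Cox7c (0.64) and Cox6c (0.49) in mononuclear phagocyte-like cells. The lowest were Uqcrc1 and Sdhb in all 3: -0.28 and -0.27, -0.45 and -0.44, and -0.54 and -0.53. The 9 genes encoded in mitochondria were at 0.014, -0.0018 and -0.25 in those types and at -0.38 in T cell-like and -1.27 in neutrophil-like cells. Among them mt-Co1 (0.33) and mt-Co3 (0.27) were highest and mt-Nd2 (-0.26) and mt-Atp6 (-0.09) lowest in keratinocyte-like cells, mt-Cytb (0.28) and mt-Co3 (0.08) highest and mt-Atp6 (-0.22) and mt-Nd2 (-0.16) lowest in fibroblast-like cells, and mt-Co3 (-0.06) and mt-Co1 (-0.08) highest and mt-Nd2 (-0.68) and mt-Nd1 (-0.46) lowest in mononuclear phagocyte-like cells.

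**Figure D5:**
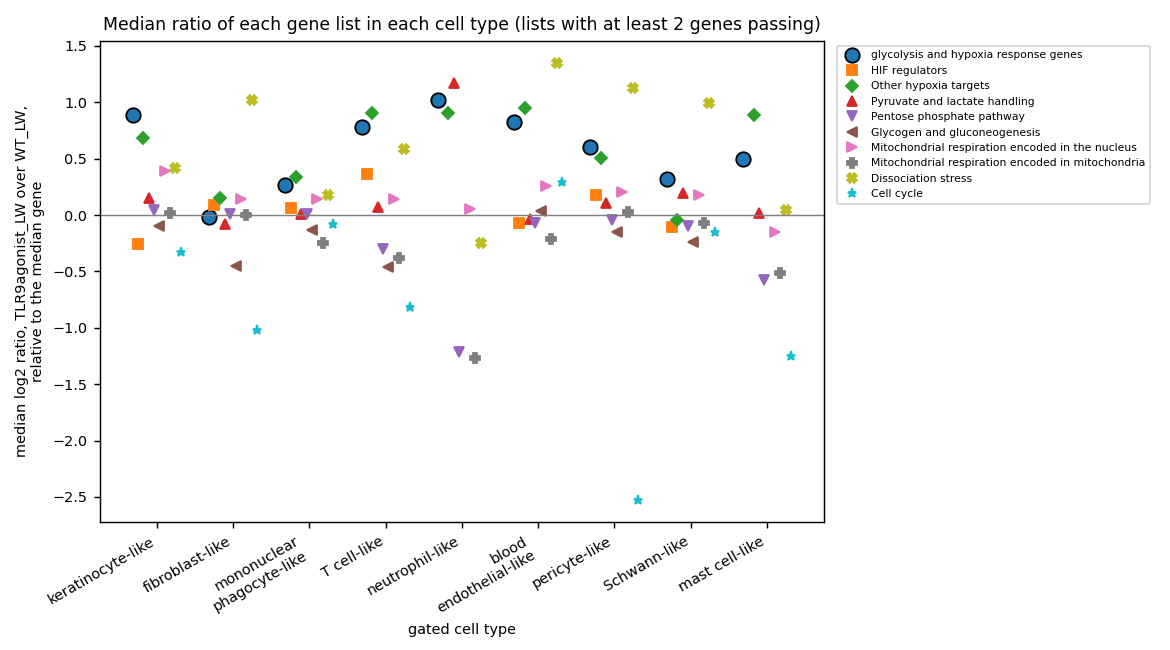
Median relative log2 ratio (vertical axis) of the 32 members and of the other gene lists with at least 2 genes counted in each of the 9 cell types (horizontal axis); red cell genes are not drawn. In T cell-like cells the members are at 0.78 and the other hypoxia targets at 0.91, against 0.14 for nuclear and -0.38 for mitochondrial genes of respiration.

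Several other measures also differed between the libraries, not always in the same types as the members, and their part in the differences was not tested. Keratinocyte markers summed to 630.0 CPM in T cell-like cells in WT_LW and 2135 CPM in TLR9agonist_LW. Fibroblast markers summed to 12038 and 8908 CPM in Schwann-like cells, whose own markers summed to 8652 and 13013 CPM. In pericyte-like cells fibroblast markers summed to 10480 and 7429 CPM, beside 21848 and 17844 CPM of pericyte markers. No fibroblast signal was subtracted from the ratios of these types. By Krt14, free keratinocyte RNA alone would bring 7.24 and 37.7 CPM of Aldoa and 0.240 and 1.36 CPM of Slc16a3 to T cell-like cells. In pericyte-like cells it would bring 3.32 CPM of Egln3 in TLR9agonist_LW, most of what was counted. With that RNA subtracted, the median over the members was 0.78 in T cell-like, 0.83 in blood endothelial-like and 0.57 in pericyte-like cells. The neutrophil and keratinocyte transcript S100a8 stood at 31.3 and 824 CPM in T cell-like cells, beside 18104 and 23338 CPM in neutrophil-like cells and 1197 and 6308 CPM in keratinocyte-like cells.

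Genes induced by tissue dissociation, 12 in all, had medians of 1.35, 1.13, 1.02, 0.99, 0.58, 0.42, 0.18, 0.041 and -0.25 in blood endothelial-like, pericyte-like, fibroblast-like, Schwann-like, T cell-like, keratinocyte-like, mononuclear phagocyte-like, mast cell-like and neutrophil-like cells. Blood endothelial-like cells had the highest median of this list and fibroblast-like cells the third highest, where the members were at 0.82 and -0.021. Neutrophil-like cells had the lowest, where the members were at 1.02. Whether this list goes with the members was not tested. The ends of the list were Hspa1a (2.25), Dnajb1 (2.17), Fos (-0.85) and Fosb (-0.81) in keratinocyte-like cells, Hspa1b (2.21), Dnajb1 (2.12), Fos (-0.0086) and Atf3 (0.39) in fibroblast-like cells, and Hspb1 (2.93), Hspa1b (1.72), Fosb (-1.12) and Fos (-0.72) in mononuclear phagocyte-like cells. Cell cycle genes, 10 in all, had medians of -2.53 in pericyte-like, -1.02 in fibroblast-like, -0.82 in T cell-like, -0.33 in keratinocyte-like and -0.08 in mononuclear phagocyte-like cells. They went the other way in blood endothelial-like cells at 0.29, with 3 of 9 past 1.5-fold higher and 0 lower, against 16.7% and 13.9% of all genes. Mast cell-like and Schwann-like cells were at -1.25 and -0.15. Their ends were Cdk1 (0.34), Nusap1 (0.15), Cenpf (-1.21) and Mki67 (-0.79) in keratinocyte-like cells, Nusap1 (-0.57), Ube2c (-0.64), Cenpf (-1.503) and Ccnb1 (-1.32) in fibroblast-like cells, and Ccnb2 (0.55), Ube2c (0.50), Cenpf (-0.71) and Ccnb1 (-0.54) in mononuclear phagocyte-like cells. Without the cycling cells the members' medians were 0.68 in pericyte-like and -0.019 in fibroblast-like cells. The red cell gene Hbb-bs, a marker of blood in the sample, was at 13.6 and 0 CPM in keratinocyte-like cells and 5.47 and 0.355 CPM in fibroblast-like cells. Hba-a1 was at 9.86 and 0.0647 CPM, Hba-a2 at 10.4 and 0.0647 CPM and Hbb-bt at 4.56 and 0.0324 CPM in keratinocyte-like cells, and in mononuclear phagocyte-like cells no red cell gene reached 50 UMIs.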

How the data were processed

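Droplet 3′ single-cell RNA sequencing was done on skin cells of both groups. The deposited values are raw UMI counts per gene and cell, which the authors made with fastp and Cell Ranger 4.0.0 and analysed further in Seurat, tools that the submitters' processing notes name with genome build mm9. The gene list carries no coordinates, and promoters came from a RefSeq table on GRCm38.p6. Both matrices were read as deposited; normalized values from the authors were not used.

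Barcodes were kept from 500 UMIs and 300 genes upward if mitochondrial genes took no more than 15% of the UMIs. Each cell was scored per type as the mean, over fixed markers, of UMIs per 10000 divided by a share of 0.5 of that marker's 99th percentile and capped at 1, and was placed in the best type where the score was at least 0.1, at least 3 markers were seen and the score was at least 2 times the next. A first form of the score, on a log scale, placed too few cells and was dropped after the data were seen. No doublet caller was run, and the margin removes cells with markers of 2 types. Counts were summed per type and library. Levels carry exact Poisson intervals and ratios and shares exact Clopper-Pearson intervals (95%); they cover counting error only. A count of 0 allows 3 counts. With 1 library per group no test was made. All members are named, with the 3 highest and 3 lowest ratios of each type in full, and the 2 highest and 2 lowest of each other list in 3 types, except 1 gene that is not reported here. The members and lists were chosen with earlier results of these data known. Each result was recomputed under 8 other settings, and under 2 more chosen after seeing the data. Scripts ran in Python 3.11.15 with numpy 2.4.6, scipy 1.17.1 and pandas 2.3.3 and were tested on simulated data. Near-identical copies of Gapdh, Pgk1 and Eno1 could share reads with these genes, so their counts carry that uncertainty.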

Additional observations from a re-analysis of the deposited data

Results flagged for a closer look

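For 7 members the ratio of the libraries pointed in opposite directions in different cell types, each time past 1.5-fold relative to the median gene of the type. Such opposite calls are common over 9 types: 16.6% of the 1136 genes with enough UMIs in all 9 had them, and 2 of the 13 members with enough UMIs in all 9. With 1 library per group the differences were not tested. The difference between T cell-like and fibroblast-like cells was 3.99 log2 units for Slc16a3 (2.86 and -1.13), 3.22 for Bnip3 (2.47 and -0.75) and 1.80 for Pgam1 (1.19 and -0.60). For Eno1 it was 2.99 between neutrophil-like (2.35) and fibroblast-like cells (-0.64), with 50 neutrophil-like cells in WT_LW. Keratinocyte-like cells differed from fibroblast-like cells by 2.00 for Ankrd37 (1.27 and -0.72), and from mononuclear phagocyte-like cells by 1.95 for Aldoc (1.24 and -0.71). For Egln1 the difference between T cell-like (0.78) and mast cell-like cells (-1.39) was 2.17. The Ankrd37 difference lost its opposite signs in cells thinned to 1500 UMIs, where the fibroblast-like ratio was 0.77.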

How the results depend on the processing

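Of the 89 values of the members' median under an alternative, 80 stayed within the median of the members' counting intervals and 8 moved outside it. The remaining 1 was counted as a change of sign, which required that interval to exclude 0. The fibroblast-like interval includes 0, so its changes of sign are among the 80. That median went from -0.021 to 0.11 with equal weight per cell and 0.051 in cells thinned to 1500 UMIs. Without the 10% of cells with the most UMIs it was 0.090. On plain CPM, not taken relative to the median gene, the medians were 0.45 in keratinocyte-like, -0.30 in fibroblast-like, 0.49 in T cell-like, 0.38 in blood endothelial-like and 0.20 in pericyte-like cells. The value counted as a change of sign was -0.0059 in mononuclear phagocyte-like cells, also on plain CPM. In cells thinned to 1500 UMIs they were 0.73 in keratinocyte-like, 0.97 in T cell-like and 0.59 in blood endothelial-like cells. Of 1250 values of single members that were past 1.5-fold, 987 stayed, 259 moved and 4 changed sign, all 4 in thinned cells: Ankrd37 in fibroblast-like (0.77), Pfkp in neutrophil-like (-0.17), and Slc2a1 (-0.030) and Eno2 (-0.030) in Schwann-like cells. Among the values that stayed, 127 belong to the setting with a minimum of 10 UMIs for members. That setting leaves the ratio of a single member unchanged, so those 127 could not move. Members past 1.5-fold higher numbered between 11 and 19 in keratinocyte-like, 4 and 6 in fibroblast-like, 5 and 10 in mononuclear phagocyte-like, 13 and 21 in T cell-like, 9 and 18 in neutrophil-like, 10 and 24 in blood endothelial-like, 9 and 17 in pericyte-like, 3 and 11 in Schwann-like and 3 and 13 in mast cell-like cells over all the settings. Those lower in fibroblast-like cells numbered between 1, without the 10% of cells with the most UMIs, and 10, on plain CPM. The share of all genes past 1.5-fold moved with the setting too. In keratinocyte-like cells 14.9% were higher relative to the median gene and 6.28% on plain CPM. In fibroblast-like cells 13.8% and 8.1% were higher and 10.1% and 23.4% lower, in that order. That share was not taken for every type and setting, so these ranges alone do not show which counts lie near it. The causes were not tested. Free keratinocyte RNA could not be subtracted in keratinocyte-like cells, which are its source. No paired analysis was possible because each group is 1 library, and no library could be left out. Depth limits the neutrophil-like values most, since 3 counts there are 24.1 CPM in WT_LW and 5.79 CPM in TLR9agonist_LW.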

Other observations

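Lymphatic endothelial-like cells, 36 in WT_LW and 48 in TLR9agonist_LW, were left out of the report for their small number. There 12 members had at least 50 UMIs, and Pfkfb3 was at 30.1 and 127 CPM in the WT_LW and TLR9agonist_LW libraries, a relative log2 ratio of 2.21 (1.16 to 3.47), from 8 and 78 UMIs, so it met that minimum only through the library where it was high. Over all the gated cells of a library together, with cell types in the proportions in which they were caught, the median over the 32 members was 0.60.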
